A study of Rattus norvegicus with 35 samples.

Results

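The comparison described here is that of the livers of rats given ketoconazole at 30 mg/kg per day for 7 days (middle dose) with those of rats given 10 mg/kg per day for the same 7 days (low dose). It rests on 6 small RNA libraries, 3 per dose, out of 35 in the series, and on every miRNA row of the raw count table. All 6 came from male Sprague-Dawley rats, 6 weeks old, which were dosed by mouth and whose livers were collected 24 h after the last dose. The other groups used for reference are vehicle controls (0.5% methylcellulose) and rats at 100 mg/kg (high dose) on day 7, and the low and middle doses on days 3 and 14. Nothing in the labels says how the animals were assigned to the numbered replicates, so p-values measure only the spread between libraries within groups, which may be technical. That spread was estimated over all 35 libraries in 12 groups.

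MicroRNAs (miRNAs) are very short RNAs that guide Argonaute proteins to messenger RNAs, chiefly through the bases at positions 2 to 8 of the miRNA, called the seed. miRNAs with the same seed can bind the same sites and form a family, and several miRNAs are often cut from one primary transcript. Hepatocytes are rich in miR-122, miR-192, miR-22 and miR-148a, while other miRNAs in whole liver come mainly from blood, endothelial or stellate cells. Ketoconazole is an azole antifungal that inhibits sterol synthesis and can injure the liver. The comparison addresses which liver miRNAs change as the dose is raised within a week of treatment.

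Total counts of the 6 libraries ran from 2988801 to 4291752, within the range of 2665943 to 9665416 over the series. The table listed 763 miRNAs, of which 232 had no count in the 6 libraries, and 328 had enough counts to be tested. These 328 held 99.99% of the counts of the 6 libraries. Of the 435 not tested, 203 had some counts here, with a mean of at most 1.54 CPM (read counts relative to the library total, scaled for library composition). The hepatocyte miRNAs dominated, as the mean CPM of miR-22-3p was 20.3% of the scaled library total, that of miR-192-5p 15.4% and that of miR-148a-3p 5.94%. Along the first principal component of all 35 libraries, which carried 46.2% of the variance, the 6 libraries lay close together, between 4.24 and 6.25. The 14 control libraries and low dose libraries of days 3 and 14 lay between -14.49 and -4.32, and the remaining 21 between 4.24 and 6.47. Among the 6 alone, the first component (35.4%) parted the doses, with the low dose between -5.02 and -3.48 and the middle dose between 3.01 and 4.63. On the second component of the 6 (21.1%), middle dose replicates 1, 2 and 3 lay at -4.48, 4.48 and -1.40. By raw counts, middle dose replicate 1 stood apart from its group. Its counts differed from those of replicates 2 and 3 by a chi-square per degree of freedom of 208 and 141, against 70.5 between replicates 2 and 3 and 64.9 to 80.0 within the low dose.

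The sequences below are those on which the results turn, and show which miRNAs share a seed. They are RefSeq mature sequences from the GRCr8 assembly, matched by name, written from the 5′ end with the seed in capitals. Of the 328 tested miRNAs, 292 matched, among them 27 of the 33 that passed the test described next. The first group holds the members of the miR-15/16 family that matched, of which 3 fell. Another member that fell, miR-15a-5p, had no match, nor had miR-30b-5p.
miR-16-5p: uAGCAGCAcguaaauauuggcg
miR-195-5p: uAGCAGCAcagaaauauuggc
miR-322-5p: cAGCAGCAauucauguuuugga
miR-15b-5p: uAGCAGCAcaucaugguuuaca
miR-497-5p: cAGCAGCAcacugugguuugua
The next pair is miR-193a-3p, the miRNA with the smallest adjusted p, and its close relative, which differs from it at 1 of the positions that both have.
miR-193a-3p: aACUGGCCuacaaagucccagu
miR-193b-3p: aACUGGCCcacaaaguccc
The miRNAs of the miR-183 cluster, cut from one transcript, have related but distinct seeds and include miR-183-5p and miR-182, which had the largest rises among the miRNAs past the threshold above 10 CPM, although that of miR-183-5p rested on 1 library.
miR-182: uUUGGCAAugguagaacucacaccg
miR-183-5p: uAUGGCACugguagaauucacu
miR-96-5p: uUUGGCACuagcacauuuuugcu
Members of the let-7 family moved in opposite directions, although their seeds are the same and the full sequences differ at 3 positions.
let-7f-5p: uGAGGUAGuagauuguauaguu
let-7d-5p: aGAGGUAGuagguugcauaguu
The most abundant miRNAs that rose were miR-148a-3p and miR-143-3p, and miR-30c-5p stands for the miR-30 seed.
miR-148a-3p: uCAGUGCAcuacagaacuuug
miR-143-3p: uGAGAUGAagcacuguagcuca
miR-30c-5p: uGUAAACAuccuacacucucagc

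At the middle dose 33 of the 328 miRNAs (10.1%) differed from the low dose at an adjusted p under 0.05 in the quasi-likelihood test of edgeR, adjusted by the method of Benjamini and Hochberg. Of these, 7 (2.13%) were higher and 26 (7.93%) were lower. Differences were small, as 5 of the 33 reached 2-fold, and the median log2 fold change (middle minus low) over all 328 was -0.057. The higher miRNAs included the abundant miR-148a-3p and miR-143-3p, let-7f-5p and the pair of miR-183-5p and miR-182. The lower ones included miR-193a-3p, 4 members of the miR-15/16 group, 3 of the miR-30 family and 3 markers of white blood cells. The plot of fold change against level shows that the lower miRNAs span scarce and abundant ones alike, while 3 of the 7 higher ones (miR-148a-3p, miR-143-3p and let-7f-5p) were among the most abundant miRNAs.

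**Figure D1:**
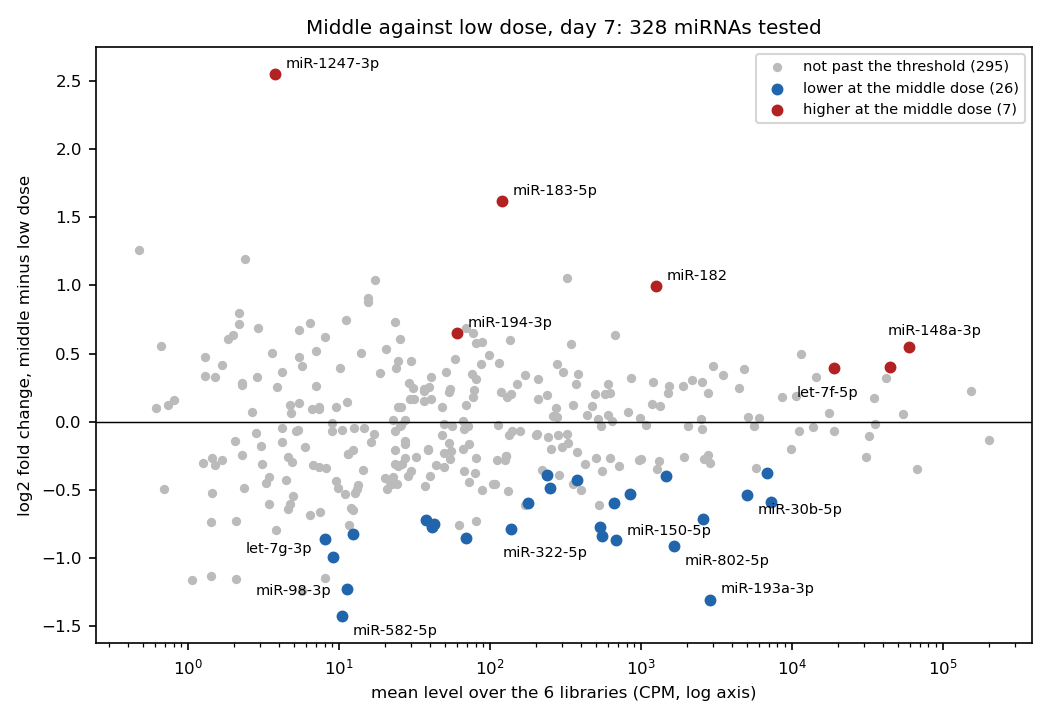
Log2 fold change (middle minus low dose, day 7) of each of the 328 miRNAs against its mean level over the 6 libraries (CPM, log axis), with the 7 miRNAs that passed the test as higher in red, the 26 as lower in blue and the others in grey. miR-193a-3p and miR-582-5p lie lowest among the miRNAs past the threshold, and the points at the far left are the scarcest miRNAs.

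The split into higher and lower depended on the scaling and on single libraries, and the direction of each of the 33 did not. With DESeq2's size factors in place of edgeR's scaling (TMM), 35 miRNAs passed, 17 higher and 18 lower, and DESeq2 itself called 42, of which 21 were higher and 21 lower. Between the TMM and the DESeq2 scaling the median of all miRNAs shifted from -0.057 to 0.024. Without middle dose replicate 1 the count was 41, with 26 higher and 15 lower. Without middle dose replicate 2 it was 20 (9 higher, 11 lower), without middle dose replicate 3 it was 13 (8 higher, 5 lower), and without low dose replicate 3 it was 21 (5 higher, 16 lower). Of the 33 miRNAs, 6 passed in every setting in which they were tested: miR-193a-3p, miR-322-5p, miR-30b-5p, let-7g-3p, miR-182 and miR-1247-3p. The other 27 lost the call when at least 1 of the 6 libraries was left out. For single miRNAs, the losses listed in full below are those without a library, with DESeq2's size factors or with the replicate number as a block. Losses in other settings are mostly not listed. Of the 33 calls, 15 were kept with no low-count filter, 19 with only the day 7 libraries and 18 with only the 6 libraries.

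**Figure D2:**
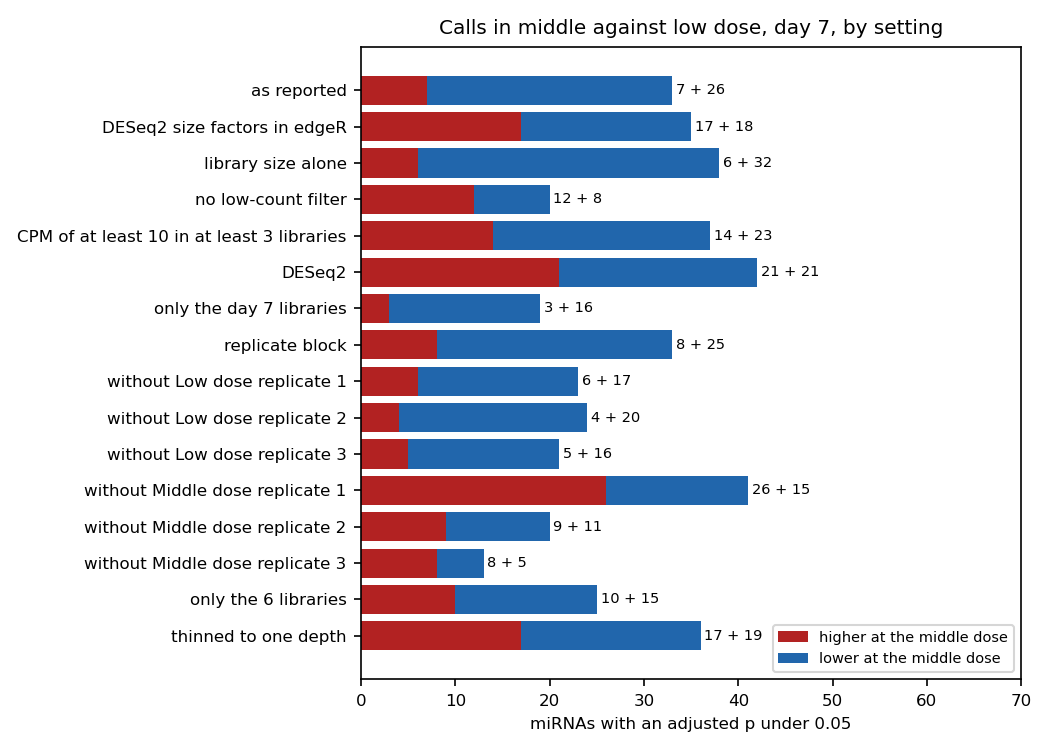
Number of miRNAs with an adjusted p under 0.05 between the middle and low doses on day 7 in each setting, with those higher at the middle dose in red and those lower in blue. The total runs from 13 to 42, and the higher ones are the minority as reported (7 of 33) and the majority without middle dose replicate 1 (26 of 41).

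The groups of 3 did not overlap for 110 of the 328 miRNAs (33.5%), with the middle dose all below in 77 and all above in 33. Of the 33 that passed the test, 32 did not overlap, and the exception was miR-183-5p.

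The transcript of the miR-183 cluster is known to be induced with genes of sterol synthesis, and its miRNAs, with miR-33 from the introns of the sterol regulator Srebf2, formed a list of 5 tested members. In this list 2 rose, none fell and 3 did not pass, compared with 2.13% of all miRNAs that rose. The median log2 fold change was 0.61, against -0.057 over all miRNAs. miR-182 stood at 863, 956 and 704 CPM in the low dose libraries and at 1908, 1376 and 1741 CPM in the middle dose libraries. Every middle dose library was above every low dose library, and the log2 fold change was 0.99 ± 0.21 (SE, adjusted p = 0.0034), or 1.99-fold. The controls of the day had 655 ± 37.7 CPM and the high dose 1473 ± 294 CPM (SD, n = 3 each), so the low dose mean lay near the controls and the middle near the high dose.

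miR-183-5p, a neighbour of miR-182 on the transcript, was at 64.2, 65.8 and 47.5 CPM at the low dose and at 392, 59.6 and 91.7 CPM at the middle dose. Middle dose replicate 1 alone was far above the rest, and replicate 2 was within the low dose range. The log2 fold change of 1.62 ± 0.43 (adjusted p = 0.0126) was 0.44 without middle dose replicate 1 and then missed the threshold, and it also missed it without low dose replicate 3 (1.48). Fits of only the day 7 libraries (1.63) or only the 6 libraries (1.74) missed the threshold as well. miR-96-5p, the third miRNA of the transcript, had 24.0, 22.9 and 13.4 CPM against 32.1, 28.2 and 31.8 CPM, a log2 fold change of 0.61 ± 0.34 (adjusted p = 0.254). miR-33-5p had -0.21 ± 0.18 and miR-33-3p -0.49 ± 0.21, neither passing the test.

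Of 15 tested miRNAs abundant in hepatocytes, 2 rose and 1 fell, compared with 2.13% and 7.93% of all miRNAs. The median log2 fold change was 0.058. miR-148a-3p, a hepatocyte miRNA known to target the LDL receptor, had 49145, 46144 and 49518 CPM at the low dose and 54796, 86139 and 70643 CPM at the middle dose. All middle dose libraries were above all low dose libraries, though replicate 1 only narrowly, and the log2 fold change was 0.55 ± 0.14 (adjusted p = 0.0121). The call was lost without middle dose replicate 2 (0.47), without low dose replicate 2 (0.51) and with only the day 7 libraries (0.56). Its seed is shared by miR-148b-3p and miR-152-3p, which had log2 fold changes of 0.03 ± 0.14 and 0.04 ± 0.13 and did not pass. The controls had 29080 ± 8216 CPM of miR-148a-3p and the high dose 51296 ± 6473 CPM, so the middle dose mean was the highest of the day.

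miR-194-3p, the scarcer arm of the hairpin that also yields miR-194-5p, rose from 52.4, 47.6 and 41.5 CPM to 86.5, 56.0 and 79.1 CPM, by 0.65 ± 0.20 on the log2 scale (adjusted p = 0.0341). The call was lost without any of low dose replicates 1 to 3 (0.73, 0.65 and 0.57) and without middle dose replicates 1 (0.60) and 3 (0.74). The abundant arm miR-194-5p had the opposite sign, at 6635, 6449 and 6094 CPM against 4966, 5050 and 5177 CPM (-0.34 ± 0.12, adjusted p = 0.0683), without passing. miR-802-5p, a hepatocyte miRNA linked to insulin resistance, was the member that fell. It had 2174, 2305 and 1996 CPM at the low dose against 1100, 1182 and 1166 CPM at the middle dose, with no overlap (-0.91 ± 0.26, adjusted p = 0.0188). The controls (833 ± 397 CPM) and the high dose (1437 ± 136 CPM) were both below the low dose. That call was lost without low dose replicates 1 (-0.90) or 2 (-0.86), without any of middle dose replicates 1 to 3 (-0.79, -0.83 and -0.78), and with DESeq2's size factors (-0.82).

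Other abundant hepatocyte miRNAs, such as miR-122-5p, miR-192-5p and miR-22-3p, did not pass. miR-122-5p, the miRNA most specific to hepatocytes, had 31159, 37464 and 32962 CPM against 31366, 27342 and 26170 CPM (-0.26 ± 0.14, adjusted p = 0.254). miR-192-5p, which comes with miR-194 from a transcript active in liver, had 145977, 139323 and 140524 CPM against 163644, 166572 and 166817 CPM (0.22 ± 0.10, adjusted p = 0.149), with no overlap. It passed as higher in 4 of 15 settings, among them DESeq2's size factors (0.31, adjusted p = 0.0428) and without middle dose replicate 1 (0.32). miR-22-3p, the most abundant miRNA, had -0.13 ± 0.10 (adjusted p = 0.422). miR-26a-5p, another abundant liver miRNA, missed the threshold although its groups did not overlap, with 76070, 71563 and 78679 CPM against 61703, 56838 and 59401 CPM (-0.35 ± 0.12, adjusted p = 0.0608).

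miR-143-3p is made by stellate and smooth muscle cells from a transcript shared with miR-145. It rose from 34957, 41162 and 39462 CPM to 47184, 55100 and 50707 CPM, with no overlap (0.40 ± 0.11, adjusted p = 0.0126). The controls (37560 ± 2335 CPM) were near the low dose and the high dose (50104 ± 3780 CPM) near the middle dose. The call was lost without low dose replicate 1 (0.34). Its partner miR-145-5p had the opposite sign, with 600, 645 and 656 CPM against 472, 398 and 372 CPM (-0.61 ± 0.23, adjusted p = 0.0797). Of the 7 tested stellate and smooth muscle markers, miR-143-3p was thus the 1 that rose, and none fell, compared with 2.13% and 7.93% of all miRNAs. The summed level of that list, mostly miR-143-3p, was 37089 to 43600 CPM at the low dose and 49134 to 57339 CPM at the middle dose.

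**Figure D3:**
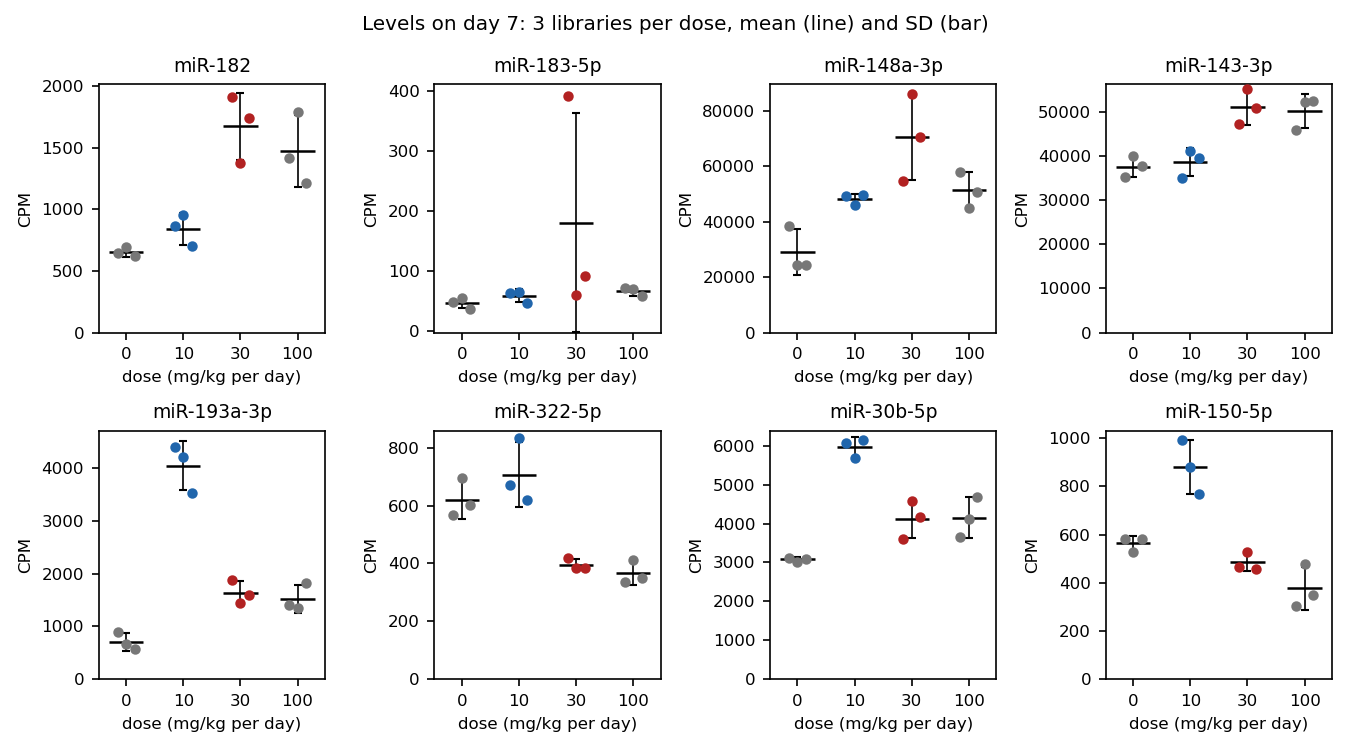
Levels (CPM, linear axis) of 8 miRNAs on day 7 at 0 (controls), 10, 30 and 100 mg/kg per day, 3 libraries per dose as points, with the mean as a line and the SD as a bar. The low (blue) and middle (red) dose libraries do not overlap except for miR-183-5p, where 1 middle dose library at 392 CPM stands above all others, and miR-193a-3p peaks at the low dose.

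miR-193a-3p had the smallest adjusted p together with miR-322-5p. It stood at 4411, 4213 and 3538 CPM in the low dose libraries and at 1890, 1445 and 1590 CPM in the middle dose libraries. The lowest low dose library was above the highest middle dose library by a wide margin, and the log2 fold change was -1.30 ± 0.21 (adjusted p = 0.000159), a level 2.47-fold higher at the low dose. The controls had 706 ± 166 CPM and the high dose 1527 ± 264 CPM, so the low dose mean of 4054 ± 458 CPM was the highest of the 4 groups of the day. All 4 tested members of the list of miR-193 and miR-365 had log2 fold changes below 0, with a median of -0.68. Of them miR-193a-3p was the 1 that passed, against 10.1% of all miRNAs. miR-193b-3p, with the same seed, had 114, 88.9 and 99.2 CPM against 61.5, 80.2 and 41.6 CPM (-0.72 ± 0.25, adjusted p = 0.0608). miR-365-3p, which is made from the transcript of miR-193b, had 192, 209 and 212 CPM against 150, 128 and 124 CPM (-0.61 ± 0.27, adjusted p = 0.162). Both were without overlap between the groups, and the controls were far below either dose, at 14.9 ± 5.35 and 24.0 ± 11.4 CPM.

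The miR-15/16 family restrains cyclins and other drivers of the cell cycle, as well as the survival gene Bcl2. Of 12 tested members of the list, 4 fell, none rose and 8 did not pass, compared with 7.93% of all miRNAs that fell. The median log2 fold change was -0.38. The summed level was 11595 to 13134 CPM at the low dose and 7673 to 8627 CPM at the middle dose, without overlap. Among the miRNAs with a matched sequence, the 5 with the seed AGCAGCA all had log2 fold changes below 0, 3 of them past the threshold, with a median of -0.59. Of the 32 seeds held by at least 2 matched miRNAs, this seed and that of let-7 had at least 2 past the threshold, and the let-7 pair went opposite ways. This count leaves out called miRNAs with no match, such as miR-15a-5p of this family and miR-30b-5p, a relative of miR-30c-5p.

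miR-322-5p, the rodent counterpart of miR-424, had 670, 833 and 618 CPM at the low dose and 418, 385 and 386 CPM at the middle dose. The groups were well apart (-0.84 ± 0.14, adjusted p = 0.000159), and the controls, at 621 ± 65.9 CPM, were at the level of the low dose. miR-16-5p, the most abundant member, had 9500, 8318 and 8166 CPM against 6058, 6065 and 5141 CPM (-0.59 ± 0.15, adjusted p = 0.0121). For this miRNA the controls were higher still, at 16210 ± 3583 CPM, and the high dose had 5787 ± 117 CPM, so the level stepped down from control to low to middle dose. miR-195-5p had 694, 622 and 707 CPM against 442, 409 and 337 CPM (-0.77 ± 0.17, adjusted p = 0.00388). miR-15a-5p had 881, 747 and 745 CPM against 470, 579 and 522 CPM (-0.60 ± 0.15, adjusted p = 0.00977). In each of these 4 miRNAs every middle dose library was below every low dose library. The calls depended on single libraries for 3 of them. miR-195-5p was lost without middle dose replicate 3 (-0.53). miR-16-5p was lost without low dose replicate 1 (-0.52) or middle dose replicates 2 (-0.52) or 3 (-0.38), and miR-15a-5p without low dose replicate 1 (-0.51) or middle dose replicates 1 (-0.43) or 3 (-0.46).

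The members of the seed group that did not pass were miR-15b-5p, with 129, 121 and 109 CPM against 88.1, 98.2 and 76.4 CPM (-0.45 ± 0.19, adjusted p = 0.124), and miR-497-5p (-0.27 ± 0.16, adjusted p = 0.286). miR-16-5p and miR-195-5p differ at 2 of their shared positions, and how reads that fit more than 1 miRNA were assigned is not given in the sources used here, so their separate counts are uncertain. The opposite arm of the miR-322 hairpin, miR-322-3p, had 133, 150 and 132 CPM against 117, 136 and 135 CPM (-0.10 ± 0.18, adjusted p = 0.77), so its groups overlapped while those of miR-322-5p did not.

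**Figure D4:**
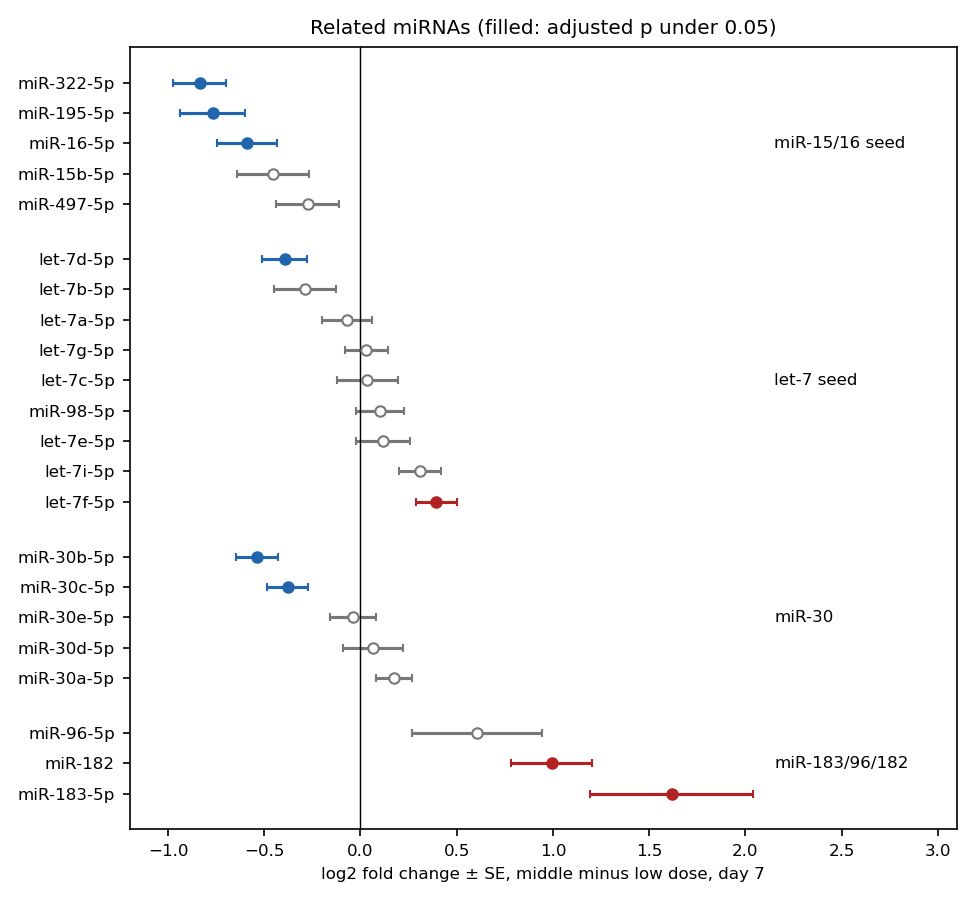
Log2 fold change with its standard error (middle minus low dose, day 7) of related miRNAs, filled where the adjusted p was under 0.05 (red higher, blue lower) and open where it was not. The 5 miRNAs shown for the miR-15/16 seed all lie left of 0, the let-7 and miR-30 families spread to both sides, and the 3 miRNAs of the miR-183 cluster lie right of 0.

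The let-7 family, known for holding back growth genes in mature tissue, had 9 tested members, of which 1 rose, 1 fell and 7 did not pass, with a median log2 fold change of 0.036. Counts of 1 are too few to set apart from the 2.13% of all miRNAs that rose and the 7.93% that fell. let-7f-5p rose from 17506, 15213 and 16630 CPM to 25312, 19627 and 19930 CPM (0.39 ± 0.11, adjusted p = 0.0126). let-7d-5p fell from 1652, 1636 and 1659 CPM to 1306, 1130 and 1328 CPM (-0.39 ± 0.12, adjusted p = 0.0223). The groups did not overlap in either. The call of let-7f-5p was lost without low dose replicate 2 (0.34), with only the day 7 libraries (0.4) and with only the 6 libraries (0.47). That of let-7d-5p was lost without any single library of the 6 (-0.40 to -0.22) and with DESeq2's size factors (-0.31), 11 settings of 15 in all. let-7i-5p, with 1687, 2116 and 2008 CPM against 2443, 2237 and 2514 CPM, did not pass (0.31 ± 0.11, adjusted p = 0.0683) although its groups did not overlap. It passed as higher in 8 of 15 settings, among them DESeq2's size factors (0.39, adjusted p = 0.0115) and without any of middle dose replicates 1 to 3 (0.38, 0.46 and 0.41). let-7f-5p differs at 1 position from let-7a-5p, which did not pass, and whether reads were shared between them was not tested.

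The miR-30 family, which is abundant in liver, had 11 tested members, of which 3 fell and none rose, compared with 7.93% of all miRNAs that fell. Its median log2 fold change was -0.022. miR-30b-5p had 6080, 5678 and 6147 CPM at the low dose and 3593, 4579 and 4172 CPM at the middle dose, clearly apart (-0.54 ± 0.11, adjusted p = 0.00312). miR-30c-5p fell from 8024, 7347 and 7674 CPM to 5104, 6798 and 5825 CPM (-0.38 ± 0.11, adjusted p = 0.0188). For both, the controls were lower than either dose, at 3080 ± 50.7 and 4465 ± 448 CPM. miR-30d-3p fell from 255, 288 and 331 CPM to 213, 208 and 204 CPM (-0.48 ± 0.16, adjusted p = 0.0449). The more abundant members did not pass, since miR-30a-5p had 0.18 ± 0.09, miR-30d-5p 0.07 ± 0.16 and miR-30e-5p -0.04 ± 0.12. miR-30b-5p held in every setting. miR-30c-5p was lost with DESeq2's size factors (-0.30) and without low dose replicates 1 (-0.35) or 3 (-0.38) or middle dose replicates 1 (-0.19) or 3 (-0.24). miR-30d-3p was lost with those size factors (-0.40), with the replicate number as a block (-0.48), without low dose replicates 2 (-0.50) or 3 (-0.38), and without middle dose replicates 1 (-0.41), 2 (-0.38) or 3 (-0.34).

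Other miRNAs that fell come from transcripts that hold several miRNAs. miR-24-2-5p and miR-23a-3p are cut from the miR-23a/27a/24-2 transcript. miR-24-2-5p had 172, 181 and 169 CPM against 116, 87.7 and 97.7 CPM (-0.79 ± 0.18, adjusted p = 0.00457), and miR-23a-3p had 411, 432 and 454 CPM against 351, 281 and 333 CPM (-0.43 ± 0.12, adjusted p = 0.0126). Their groups were apart, and both calls were lost without middle dose replicate 2 (-0.59 and -0.23) or 3 (-0.63 and -0.32), and that of miR-23a-3p also without low dose replicate 3 (-0.39). The third miRNA of the transcript, miR-27a-3p, had -0.28 ± 0.11 (adjusted p = 0.114). miR-17-5p, of the growth-promoting miR-17/92 transcript, fell from 215, 204 and 219 CPM to 128, 166 and 130 CPM (-0.59 ± 0.15, adjusted p = 0.00949). It was the 1 of 18 tested members of that list and its paralogs to pass, against 10.1% of all miRNAs. It was lost without middle dose replicates 1 (-0.43) or 3 (-0.40). miR-92a-3p of the same list had 9326, 9536 and 9584 CPM against 10378, 15555 and 14108 CPM (0.49 ± 0.17, adjusted p = 0.0608), the opposite sign, without passing. It passed as higher in 6 of 15 settings, among them DESeq2's size factors (0.57, adjusted p = 0.0371) and without middle dose replicate 1 (0.74).

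miR-29b-3p, of a family known to repress collagens, fell from 50.9, 47.6 and 43.2 CPM to 33.2, 26.0 and 26.4 CPM (-0.72 ± 0.18, adjusted p = 0.00914). All 5 tested members of that family had log2 fold changes below 0, with a median of -0.41. Of these, miR-29b-3p was the 1 that passed, against 10.1% of all miRNAs. It was lost without middle dose replicates 2 (-0.55) or 3 (-0.53). miR-130a-3p fell from 1037, 1016 and 927 CPM to 723, 633 and 705 CPM (-0.53 ± 0.12, adjusted p = 0.00604) and was lost without the same libraries (-0.37 and -0.42). Fitting only the 6 libraries also ended the calls of miR-29b-3p and miR-130a-3p (-0.65 and -0.47). Neither pair of groups overlapped. miR-374-5p fell by 0.77 on the log2 scale (53.2, 48.0 and 54.3 CPM against 32.1, 20.9 and 37.9 CPM, adjusted p = 0.00977). miR-148b-5p, the scarce arm of the miR-148b hairpin, fell by 0.75 (55.8, 50.1 and 54.3 CPM against 36.7, 30.0 and 28.1 CPM, adjusted p = 0.0111). Leaving out middle dose replicate 2 ended both calls (-0.47 and -0.61), and leaving out replicate 3 that of miR-148b-5p (-0.54). With only the 6 libraries both were lost too (-0.7 and -0.68). miR-425-5p, which shares a transcript with miR-191a, fell from 277, 265 and 273 CPM to 200, 207 and 216 CPM (-0.39 ± 0.13). Its adjusted p of 0.0495 was the closest to the threshold, and without any 1 of the 6 libraries it was lost (-0.41 to -0.28), as it was with the replicate number as a block (-0.39) and with DESeq2's size factors (-0.30).

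Of 10 tested markers of white blood cells, 3 fell, none rose and 7 did not pass, compared with 7.93% of all miRNAs that fell. Of the 10, 8 had log2 fold changes below 0 and 2 above, and the median was -0.45. miR-150-5p, a miRNA of mature lymphocytes, had 995, 881 and 769 CPM against 467, 527 and 459 CPM (-0.86 ± 0.19, adjusted p = 0.0034). miR-142-5p, made by blood cells of every lineage, had 3687, 2816 and 3044 CPM against 2010, 1851 and 1949 CPM (-0.72 ± 0.21, adjusted p = 0.0223). miR-342-3p, also rich in lymphocytes, had 93.4, 79.6 and 92.9 CPM against 55.7, 45.5 and 45.7 CPM (-0.85 ± 0.25, adjusted p = 0.0208). In all 3 the low dose libraries were above every middle dose library, and above the control means of 564 ± 30.3, 956 ± 242 and 21.4 ± 6.69 CPM. Of the members that did not pass, several also had values below 0, such as miR-142-3p (-0.39 ± 0.21, adjusted p = 0.246), the myeloid miR-223-3p (-0.44 ± 0.20, adjusted p = 0.176) and miR-155-5p (-0.45 ± 0.26, adjusted p = 0.28). The 2 above 0 were miR-181a-5p (0.18 ± 0.11, adjusted p = 0.314) and miR-342-5p (0.33 ± 0.60, adjusted p = 0.77). The summed level of the whole list, 11 of 11 of which were in the table and none at 0, overlapped, at 12190 to 13620 CPM at the low dose and 11368 to 13600 CPM at the middle dose. Most of that sum was miR-181a-5p, with a mean of 8513 CPM over the 6 libraries, so it says little about the other members. In a bulk sample fewer cells of a type and less of its miRNA per cell cannot be told apart.

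The call of miR-150-5p was lost without middle dose replicate 3 (-0.69). That of miR-342-3p was lost without low dose replicates 1 (-0.81) or 3 (-0.82) or middle dose replicates 2 (-0.70) or 3 (-0.67). That of miR-142-5p was lost with DESeq2's size factors (-0.63), without low dose replicates 1 (-0.60) or 3 (-0.75) and without any of middle dose replicates 1 to 3 (-0.66, -0.58 and -0.59).

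Markers of the remaining cell types did not pass on day 7 as fitted, though miR-200b-3p and miR-429 of the epithelial list did in some settings. None of 4 tested red blood cell markers passed (median -0.11), nor either of the 2 endothelial ones (median -0.052), whose summed level was 24375 to 25943 CPM at the low dose and 22936 to 24594 CPM at the middle dose. None of 7 miR-200 family members, markers of bile duct and other epithelia, passed, and the nearest was miR-200b-3p with 439, 548 and 603 CPM against 705, 945 and 816 CPM (0.63 ± 0.23, adjusted p = 0.0683). The groups of miR-200b-3p did not overlap, and it passed as higher in 6 of 15 settings, among them DESeq2's size factors (0.72, adjusted p = 0.0347) and without middle dose replicate 1 (0.82), where miR-429 passed too (0.98). Of the 7 members, 4 had log2 fold changes above 0. The 3 below 0 were miR-200c-3p (-0.34), miR-141-3p (-0.23) and miR-200a-3p (-0.023). Of the muscle, pancreas and brain markers, 2 of 8, 1 of 4 and 1 of 4 were tested, and none of these passed. In the same lists 4, 1 and 2 were at 0 in all 6 libraries.

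Among scarce miRNAs, 3 that passed had a mean under 10 CPM. miR-1247-3p rose from 1.02, 1.60 and 0.568 CPM to 7.61, 6.14 and 5.75 CPM (2.55 ± 0.63, adjusted p = 0.00949), and the high dose had 5.07 ± 1.22 CPM against 1.88 ± 1.06 CPM in the controls. It was the largest change of the 33, resting on few counts per library. Its other arm, miR-1247-5p, had 58.3, 63.8 and 37.2 CPM against 96.8, 105 and 54.8 CPM (0.69 ± 0.40, adjusted p = 0.275), with overlap. let-7g-3p fell from 10.5, 12.8 and 13.1 CPM to 5.71, 5.05 and 7.44 CPM (-0.99 ± 0.21, adjusted p = 0.0034), with the controls at 10.0 ± 2.23 CPM and the high dose at 10.1 ± 1.52 CPM, so the middle dose was the lowest of the day. The abundant arm of that hairpin, let-7g-5p, had 0.03 ± 0.11. miR-210-5p, the minor arm of the hypoxia-linked miR-210, fell by 0.86 on the log2 scale (12.0, 10.1 and 9.09 CPM against 6.25, 5.05 and 5.75 CPM, adjusted p = 0.0387). It was lost without any single library of the 6 (-0.95 to -0.68), with the replicate number as a block (-0.86) and with DESeq2's size factors (-0.77).

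Slightly above 10 CPM, miR-582-5p fell by 1.43 on the log2 scale, with 7.93, 18.5 and 19.3 CPM against 7.07, 3.25 and 6.43 CPM (adjusted p = 0.018). Low dose replicate 1 lay just above the middle dose range, and the call was lost without low dose replicates 2 (-1.26) or 3 (-1.23) or middle dose replicates 2 (-1.06) or 3 (-1.38). miR-98-3p fell by 1.23 (16.9, 16 and 14.5 CPM against 4.35, 9.75 and 6.43 CPM, adjusted p = 0.0121), and was lost without middle dose replicates 1 (-0.87) or 3 (-1.06). miR-484 fell by 0.82 (16.1, 13.9 and 17.3 CPM against 9.79, 9.39 and 7.44 CPM, adjusted p = 0.0241). It was lost without low dose replicates 1 (-0.81) or 3 (-0.75), without middle dose replicates 1 (-0.82), 2 (-0.76) or 3 (-0.58), and with DESeq2's size factors (-0.73). The fit of only the 6 libraries ended the call of miR-484 too (-0.75). The groups of miR-98-3p and miR-484 were further apart than those of miR-582-5p.

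Of 96 hairpins with both arms tested, none had both arms past the threshold and 22 had 1. As 10.1% of all 328 miRNAs passed, hairpins with both arms past the threshold would be few even if arms passed independently. In those 22 the other arm had the same sign in 13 and the opposite sign in 9, and whether the arms differ as a rule was not tested.

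In the lists with no call, miR-34a-5p, the miRNA of the p53 response, had 28.7, 27.4 and 30.4 CPM against 22.8, 17.7 and 36.9 CPM (-0.16 ± 0.31, adjusted p = 0.78). None of 4 tested members of the p53 list passed, nor did any of 8 inflammation-linked miRNAs, such as miR-21-5p, a miRNA that rises in many injured tissues, with 49858, 44538 and 66116 CPM against 50536, 64221 and 52374 CPM (0.06 ± 0.18, adjusted p = 0.867). The middle dose libraries of both miRNAs spread over the low dose range. miR-331-3p had 55.5, 41.4 and 51.7 CPM against 59.8, 76.5 and 68.0 CPM (0.46 ± 0.27, adjusted p = 0.286). No call was made among 10 members of the miR-99/100 and miR-125 families (median 0.059), 3 of the miR-10 family (median 0.014) or 3 of miR-221 and miR-222 (median 0.20). Of the imprinted Dlk1-Dio3 cluster, which is mostly silent in adult liver, 9 of 43 members were tested. None passed, though 8 had log2 fold changes above 0 (median 0.69), and its summed level was 38.4 to 70.4 CPM at the low dose and 78.8 to 124 CPM at the middle dose.

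Set against the other doses of day 7, the 7 miRNAs that rose had the control mean below both doses in 5 cases and between them in 2. Of the 26 that fell, the control mean was below both doses in 10, between them in 8 and above both in 8, compared with 136, 52 and 140 of all 328 miRNAs. Thus miR-193a-3p, miR-30b-5p, miR-142-5p and miR-342-3p were lower in the controls than at either dose, and miR-16-5p and miR-15a-5p higher. The next step on the same day, from the middle to the high dose, gave no call in edgeR's test (0%), with 45 of 328 at an unadjusted p under 0.05 and a smallest adjusted p of 0.106, and none in DESeq2. This step shares the middle dose libraries with the comparison above, and without middle dose replicate 2 it gave 6 calls.

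The step from low to middle dose was larger on the other days, with 100 miRNAs (30.5%) past the threshold on day 3, of which 54 were higher and 46 lower, and 111 (33.8%) on day 14, of which 73 were higher and 38 lower. With library size alone the splits were 45 higher and 74 lower on day 3 and 46 and 84 on day 14, where DESeq2's size factors gave 61 and 50. On day 14 library size alone moved the median of all miRNAs from 0.019 to -0.22. Without low dose day 3 replicate 1 the count of day 3 was 61. On days 3 and 14 the low dose libraries lay with the controls on the first principal component and the middle dose libraries did not, whereas on day 7 both doses lay in the same range.

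The miRNAs of at least 10 CPM that led the rises and falls of days 3 and 14 did not pass on day 7. The falls were smaller than the leading rises. They were led by miR-466b-5p (-1.06) and miR-15b-5p (-0.94) on day 3, and by miR-141-3p and miR-200a-3p (both -1.06) on day 14. The leading rises follow. miR-22-5p, the scarce arm of the miR-22 hairpin, had log2 fold changes of 3.30 ± 0.25 and 3.55 ± 0.25 on days 3 and 14 and 0.34 ± 0.22 on day 7. On day 7 the low dose had 149 ± 16.4 CPM against 9.24 ± 3.97 CPM in the controls. miR-191a-5p had 2.62 ± 0.19 and 2.7 ± 0.19 but -0.20 ± 0.17 on day 7, with 10473 ± 353 CPM at the low dose and 1137 ± 258 CPM in the controls. miR-322-3p had 2.71 ± 0.20 and 2.86 ± 0.20 but -0.10 ± 0.18. The low dose level on day 7 was thus close to that of the middle dose for these 3, and the tested differences between days were -2.96, -2.81 and -2.81 against day 3 and -3.21, -2.90 and -2.96 against day 14, each past the threshold. miR-128-3p, another leader and the first on day 14, had 2.88 ± 0.34 and 3.58 ± 0.35 and still 0.65 ± 0.30 on day 7 (adjusted p = 0.178). Its low dose libraries of day 7 had 65.8, 59.9 and 54.0 CPM and its middle dose libraries 49.5, 126 and 108 CPM, so replicate 1 alone of the middle dose lay below the low dose range. Its differences of -2.23 from day 3 and -2.93 from day 14 also passed.

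Over all 328 miRNAs the step on day 7 differed from that on day 3 for 45 (13.7%) and from that on day 14 for 50 (15.2%), with 6 higher and 39 lower against day 3 and 5 and 45 against day 14. With DESeq2's size factors the splits were 16 and 36, and 21 and 39. With library size alone they were 12 and 37, and 25 and 39. The median of all differences from day 14 shifted from -0.11 to 0.045 and 0.093 under these scalings. Of the 33 miRNAs that passed on day 7, 24 had the same sign on day 3 and 25 on day 14, against 203 and 198 of the 328. On day 3, 16 of the 33 were also past the threshold with the same sign and 4 with the opposite sign. On day 14 these were 14 and 5. The difference itself passed the test for 9 of the 33 against day 3, 8 against day 14 and 6 against both. The choice of the 33 by their day 7 change enters these differences.

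Among the miRNAs past the threshold on day 7, miR-193a-3p showed the plainest reversal. Its log2 fold change was 0.80 ± 0.21 on day 3 (adjusted p = 0.00424), -1.30 on day 7 and 1.03 ± 0.21 on day 14 (adjusted p = 0.000314). Of those that did not pass on day 7, miR-145-5p differed by -2.72 from day 3 and miR-193b-3p by -3.06 from day 14. miR-342-3p had 1.21 and 1.01 on days 3 and 14 (adjusted p = 0.000499 and 0.00228), and miR-30b-5p had 0.36 and 0.68 (adjusted p = 0.0143 and 8.7e-06), against the falls of day 7. The 4 members of the miR-15/16 list that fell on day 7 also fell on days 3 and 14. miR-16-5p had -0.74 and -0.82 on days 3 and 14 (adjusted p = 0.000472 and 0.00011), and miR-322-5p -0.44 and -0.49 (adjusted p = 0.0143 and 0.00649), and for neither did the difference between days pass. In the list, 6 members fell and 1 rose on day 3, and 6 fell and 2 rose on day 14. miR-148a-3p rose on all 3 days (0.60 and 0.85 on days 3 and 14, adjusted p = 0.00215 and 2.27e-05). miR-182 rose on day 14 (0.91, adjusted p = 0.00121) and had 0.51 on day 3 (adjusted p = 0.0639). miR-143-3p and let-7f-5p passed on day 7 and not on days 3 and 14, and for neither did the difference between days pass.

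**Figure D5:**
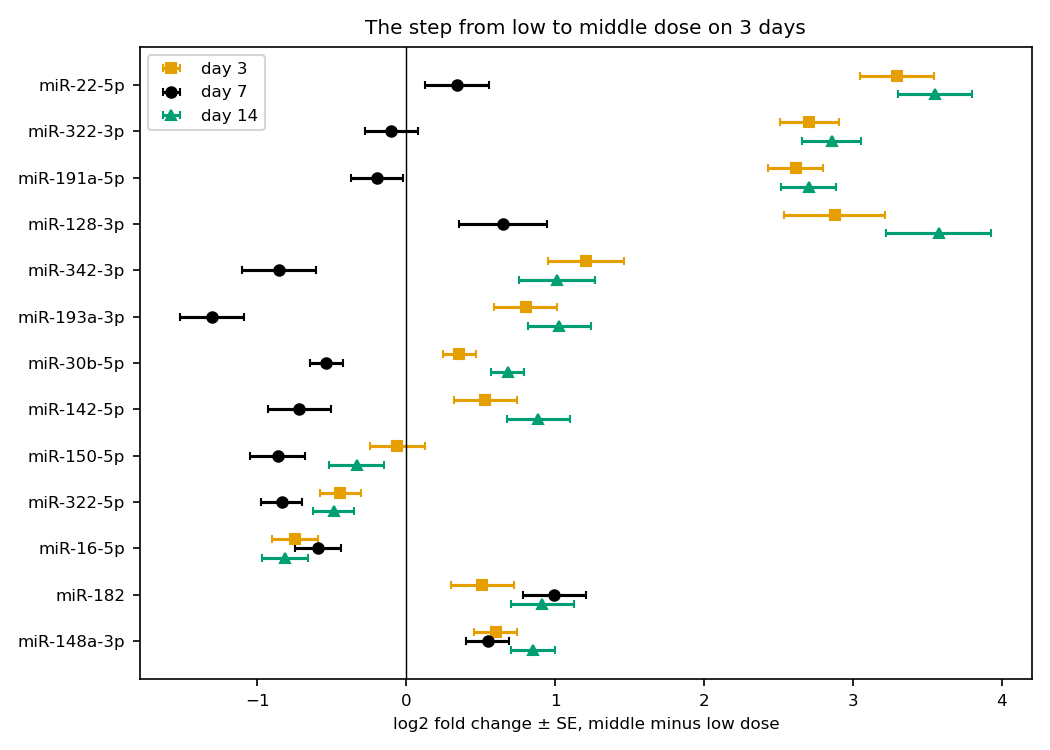
Log2 fold change with its standard error from the low to the middle dose on day 3 (orange squares), day 7 (black circles) and day 14 (green triangles) for 13 miRNAs. The top 4 stand far right on days 3 and 14 and lie between -0.20 and 0.65 on day 7. miR-342-3p, miR-193a-3p, miR-30b-5p and miR-142-5p lie left of 0 on day 7 and right of it on the other days. The lower 5 keep one side on all 3 days, with miR-150-5p near 0 on day 3.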

How the data were processed

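Small RNA libraries from rat liver were built with the TruSeq Small RNA kit of Illumina, per the labels' protocols. The authors deposited a table of raw read counts per mature miRNA with no normalization. The genome build was rn6 per the submitters' processing notes, and the aligner, the counting program and the treatment of reads that fit several miRNAs are not stated in the sources used here. Columns were assigned to samples by name. There were 37 count columns, and the 2 runs of each of 2 day 14 samples were summed, so 35 libraries entered the fit.

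The filter filterByExpr (minimum count 10, minimum total count 15) kept 328 of 763 miRNAs. With TMM scaling, edgeR 4.0.16 (under R 4.3.3) fitted 1 mean for each of 12 groups, leaving 23 residual degrees of freedom, and tested with robust quasi-likelihood F-tests. p-values were adjusted by Benjamini-Hochberg over all 328 miRNAs within a comparison, with a threshold of 0.05. Standard errors of log2 fold changes were obtained as their absolute value over the square root of F. CPM uses the scaled library sizes, with SDs over 3 libraries, and principal components used log2 CPM (prior count 2). Replicate counts were compared by chi-square, leaving out miRNAs whose counts summed to under 20. Reads carry no stated molecular identifiers, so they need not be independent molecules.

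The members and lists were chosen with earlier results of these data known. miRNAs named were those past the threshold with a mean of at least 10 CPM (up to 12 each way), the 5 most abundant past it, up to 4 members with the smallest p of each of 23 lists, and 5 named whatever their p (miR-21-5p, miR-34a-5p, miR-122-5p, miR-192-5p, miR-331-3p). For days 3 and 14 up to 4 each way were taken. The remaining miRNAs past the threshold (let-7g-3p, miR-130a-3p, miR-1247-3p, miR-23a-3p and miR-425-5p) and the partner arms, seed members and transcript neighbours were named after their values were seen. The alternatives were library size alone or DESeq2's size factors as the scaling, DESeq2 1.42.0 as the test, a filter of at least 10 CPM in at least 3 libraries or none, only the day 7 libraries, the replicate number as a block, only the 6 libraries, thinning to 2665943 counts, and each library left out. The steps were tested on simulated counts for the 328 miRNAs of middle against low dose, 200 of them changed. The test recovered 65% of 1.5-fold and 82% of 2-fold changes and made 2 calls in the 128 left unchanged. Rises and falls were equal in number. Adjusted p-values pass more easily when so many miRNAs change, so recovery may be lower in the data, where 33 of 328 passed. Figures were drawn with matplotlib 3.10.9.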

Additional observations from a re-analysis of the deposited data

Results flagged for a closer look

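Results are given here because the step from the low to the middle dose differed between days by a test of the difference itself, in the quasi-likelihood test of edgeR with Benjamini-Hochberg adjustment. The step on day 7 differed from that on day 3 for 45 miRNAs and from that on day 14 for 50. The values that follow are log2 fold changes on day 7 minus those on the other day, for miRNAs that also passed on day 7, so their day 7 change was part of the choice. miR-193a-3p had -2.11 against day 3 and -2.33 against day 14. The blood cell markers miR-342-3p (-2.06 and -1.87) and miR-142-5p (-1.25 and -1.60) differed from both days, as did miR-30b-5p (-0.89 and -1.22), miR-30c-5p (-0.75 and -0.84) and miR-148b-5p (-1.05 and -1.01). miR-98-3p (-1.64), miR-374-5p (-1.0) and miR-150-5p (-0.80) differed from day 3. miR-582-5p (-2.17) and miR-802-5p (-1.32) differed from day 14. The low dose libraries of days 3 and 14 lay with the controls on the first principal component and those of day 7 did not, and the part of that shift in these differences was not tested.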

How the results depend on the processing

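All 33 miRNAs past the threshold kept their direction in each setting in which they were tested, up to 15 in all, and 6 also kept the call. Of the 60 named miRNAs that did not pass, 51 passed in no setting. The other 9 passed in at least 1: let-7i-5p in 8, miR-92a-3p and miR-200b-3p in 6 each, miR-192-5p and miR-30c-2-3p in 4 each, and miR-194-5p, miR-193b-3p, miR-411-5p and miR-429 in 1 each. The count of 33 for middle against low dose on day 7 became 20 (12 higher, 8 lower; 15 of the 33 kept) with no low-count filter and 19 (3 and 16; 19 kept) with only the day 7 libraries. It was 38 (6 and 32) with library size alone, 37 (14 and 23) with the CPM filter, 25 (10 and 15) with only the 6 libraries and 36 (17 and 19) after thinning, and 13 to 41 when single libraries were left out. The cause of these changes was not tested. Leaving out single libraries gave 61 to 107 calls for the same step on day 3, 83 to 112 on day 14, 35 to 59 and 48 to 66 for the differences from days 3 and 14, and 0 to 6 for the high against the middle dose.

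With the replicate block the count on day 7 was 33 (8 higher, 25 lower), of which 30 were shared. The calls it ended were those of miR-210-5p, miR-30d-3p and miR-425-5p. Deviations of libraries with the same number correlated at -0.088, 0.052 and 0.21, and those with different numbers at -0.22 to 0.18. So few values cannot show whether libraries of the same number were paired or shared a batch. Low and middle dose libraries did not each correlate best with their own number.

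Signs turned for 12 of the named miRNAs, none of which had passed. With DESeq2's size factors, no filter, the CPM filter, DESeq2, the 6 libraries and thinning, miR-10a-5p had 0.074, 0.094, 0.051, 0.074, 0.054 and 0.065, miR-126a-3p 0.045, 0.068, 0.028, 0.045, 0.013 and 0.054, and miR-144-5p 0.050, 0.075, 0.034, 0.052, 0.019 and 0.13. With the size factors, no filter and DESeq2, miR-126a-5p had 0.017, 0.037 and 0.017 (thinned 0.020), miR-210-3p 0.017, 0.040 and 0.017, and miR-499-5p 0.013, 0.032 and 0.013. miR-10a-3p had -0.031 with library size alone. When single libraries were left out, the values also crossed 0 for miR-10a-5p (-0.063 to 0.21), miR-10a-3p (-0.071 to 0.22), miR-126a-3p (-0.094 to 0.22), miR-126a-5p (-0.085 to 0.067), miR-144-5p (-0.22 to 0.16), miR-210-3p (-0.10 to 0.074), miR-499-5p (-0.14 to 0.11), miR-34a-5p (-0.37 to 0.14), miR-34b-5p (-0.084 to 0.53), miR-451-5p (-0.41 to 0.014), miR-21-5p (-0.063 to 0.24) and miR-221-5p (-0.16 to 1.45).

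With 3 libraries per dose, 65% of the simulated 1.5-fold changes were recovered when 200 of 328 miRNAs were changed. Recovery may be lower where fewer change, so a miRNA that missed the threshold is not shown to be unchanged. Intervals for depth were not used, as the differences between replicates exceeded counting error.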
